A study of Homo sapiens with 6 samples.

Results

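A set of 10 genes of fibroblast growth factor (FGF) receptor signalling was followed by name, among the 10066 assembled loci of the expression table. They were the receptors FGFR3 and FGFR2, the fusion partners TACC3 and BAIAP2L1, and 6 genes that respond to the kinase ERK, namely DUSP4, DUSP6, SPRY2, SPRY4, ETV4 and ETV5. All 10 were found, and each was a single locus in the table. Polyadenylated RNA was measured in 3 human bladder cancer cell lines, each of which is labelled as carrying a fusion of FGFR3. RT4 and RT112 cells carry an FGFR3-TACC3 fusion, and SW780 cells carry a fusion that the labels spell FGFR3-BAIBP2L1, the partner of which is BAIAP2L1 in the table. Every line was exposed for 2 days to DMSO, the solvent, or to quisinostat, a pan-inhibitor of histone deacetylases, and the question is what quisinostat did to transcript levels in each line. RT4 cells received 50 nM of quisinostat, RT112 cells 10 nM and SW780 cells 25 nM. Dose and cell line therefore cannot be told apart, and the media differed between the lines as well. Each line and treatment gave a single library, which makes 6, and no difference within a line has a replicate check.

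FGF receptors are receptor tyrosine kinases that, once paired by an FGF and heparan sulfate, signal through adapters to RAS, RAF, MEK and ERK. In the FGFR3 fusions of bladder cancer the kinase is kept and the C-terminal tail is exchanged for part of the partner, which pairs the receptors without a ligand. Active ERK induces genes that then restrain the pathway, among them dual-specificity phosphatases (DUSP) and Sprouty proteins (SPRY), and it also raises the ETS transcription factors ETV4 and ETV5, so that transcripts of these genes are often read as an output of the receptor.

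The values are FPKM, that is fragments divided by transcript length and by the sequenced total that mapped, as the authors computed them for each assembled locus. They already account for the length of the assembled transcripts, so that levels of different genes can roughly be set beside each other. They hold no read counts, so sequencing depth is unknown. Library medians lay between 6.59 and 7.40 FPKM. Loci listed at 0 numbered 213 to 534 per library. A gene's response within a line is given as log2 of the quisinostat FPKM divided by the DMSO FPKM, for the 9112 loci above 0 in all 6 libraries. Across the loci with a GC value these ratios moved with the GC content of the transcript, with a Spearman correlation of -0.49 for RT4, 0.44 for RT112 and -0.22 for SW780, given as a description across genes. For the 10 genes each ratio is therefore also given after a correction that subtracts this trend, and for other genes where the correction turned a sign or a side of 0.3. In bulk RNA, fewer cells of a type and less RNA per cell cannot be told apart.

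The promoter of FGFR3 precedes both the native and the fused FGFR3 transcripts, whereas native TACC3 and BAIAP2L1 transcripts start from promoters of their own. For this reason the sequences that precede a start of both receptors and both partners are shown. They run from 250 to 51 bases before the start of a RefSeq transcript (GRCh38.p14), 5′ to 3′ on the gene's strand, and overlap no exon of GENCODE 29. For FGFR2 the first listed of several starts was taken, and the RefSeq start of TACC3 lies upstream of its GENCODE start. Capitals mark GC boxes, the letters GGGCGG or their reverse complement CCGCCC. The FGFR3 window lies at chr4:1793043-1793242 on the plus strand, that of FGFR2 at chr10:121598495-121598694 on the minus strand, that of TACC3 at chr4:1720381-1720580 on the plus strand and that of BAIAP2L1 at chr7:98401141-98401340 on the minus strand.
FGFR3: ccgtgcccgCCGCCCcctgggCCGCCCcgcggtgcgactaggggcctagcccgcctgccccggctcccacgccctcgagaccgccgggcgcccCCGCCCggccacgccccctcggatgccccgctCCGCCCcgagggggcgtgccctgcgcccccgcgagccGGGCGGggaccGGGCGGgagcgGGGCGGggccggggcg
FGFR2: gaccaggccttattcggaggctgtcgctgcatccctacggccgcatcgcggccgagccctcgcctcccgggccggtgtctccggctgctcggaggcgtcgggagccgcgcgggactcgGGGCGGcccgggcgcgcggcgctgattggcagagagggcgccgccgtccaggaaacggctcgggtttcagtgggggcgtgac
TACC3: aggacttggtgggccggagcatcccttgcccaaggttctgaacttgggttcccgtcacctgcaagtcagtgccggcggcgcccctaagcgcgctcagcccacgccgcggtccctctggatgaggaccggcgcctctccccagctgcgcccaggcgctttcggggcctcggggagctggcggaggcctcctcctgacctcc
BAIAP2L1: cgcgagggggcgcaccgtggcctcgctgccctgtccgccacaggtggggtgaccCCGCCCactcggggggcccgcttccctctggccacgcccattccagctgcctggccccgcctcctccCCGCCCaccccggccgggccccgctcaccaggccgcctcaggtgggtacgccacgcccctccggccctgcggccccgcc

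The FGFR3 window was the most GC-rich of these 4, with a GC content of 87.5%, 33 CpG dinucleotides and 7 GC boxes. The corresponding values were 75.0%, 30 and 1 for FGFR2, 70.5%, 17 and 0 for TACC3, and 80.5%, 21 and 2 for BAIAP2L1. Among all 35116 windows of the same length the median GC content was 57.5%, the median number of CpG was 8, and 35% of windows held at least 1 GC box. The ETS letters CCGGAA, searched on both strands, were in 10% of all windows and in none of these 4, and a window of SPRY2 held 1 match. The letters of AP-1 sites (TGACTCA, in 3.23% of all windows) and of CRE sites (TGACGTCA, in 0.951%) were in none of the 4. These matches describe letters in the windows and do not show binding.

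FGFR3 itself (GRCh38, chr4:1793293-1808872, plus strand) did not respond alike in the 3 lines. It stood at 19.96 FPKM in DMSO and 6.12 FPKM in quisinostat in RT4 cells, at 17.2 and 32.8 FPKM in RT112 cells, and at 2.49 and 0.621 FPKM in SW780 cells. The treated library was thus 3.26-fold lower in RT4 cells, 4.01-fold lower in SW780 cells and 1.91-fold higher in RT112 cells. In DMSO, FGFR3 was above 78.6% of loci in RT4 and 75.4% in RT112 cells but above only 24.2% in SW780 cells, and the highest line exceeded the lowest 8.01-fold. After quisinostat that spread was 52.9-fold, between RT112 and SW780 cells. It rests on the low value of 0.621 FPKM in SW780 cells, above only 8.80% of loci. With biological replicates, the study's quantitative PCR found FGFR3 mRNA not lowered by quisinostat in any of the 3 lines. In SW780 cells that assay found more of it. The single libraries of RT4 and SW780 cells thus differ from the assay, and the reason was not tested. The assay used primers for the N-terminal part of FGFR3 and was normalised to beta-actin, whereas FPKM cover the whole locus. At the protein level the study found FGFR3 lowered by quisinostat in every line, and the paper proposes that its translation is suppressed. Protein was not measured in these libraries.

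The log2 ratios of FGFR3 were -1.71, 0.93 and -2.0 in RT4, RT112 and SW780 cells. Of all loci, 5.55% were lower than FGFR3 by this ratio in RT4 and 1.77% in SW780 cells, and 85.0% were lower in RT112 cells. FGFR3 transcripts have a GC content of 62.0%. After the GC correction the ratios were -0.72, 0.20 and -1.71, so the higher value in RT112 cells no longer passed 0.3, the limit used here to count a gene as higher or lower, while RT4 and SW780 cells kept values below -0.3. In limma across the 3 lines, on log2(FPKM + 1) with cell line as a block, FGFR3 had a log2 fold change of -0.59 (standard error 0.49, adjusted p = 0.595), and its adjusted p lay between 0.143 and 0.998 under the alternatives.

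A fragment of a fused transcript falls on the FGFR3 locus or on the partner's locus according to the side of the junction it comes from. Native and fused FGFR3 transcripts therefore cannot be told apart in these values, and neither can native and fused transcripts of a partner. How the length of a fused transcript entered the FPKM is not known. Levels of FGFR3 or of a partner set against another gene are therefore approximate.

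FGFR2 (chr10:121478334-121598458, minus strand), a close relative of FGFR3 that is also expressed in epithelia, was higher after quisinostat in every line. It stood at 4.0 FPKM in DMSO and 8.78 FPKM in quisinostat in RT4 cells, at 2.68 and 12.4 FPKM in RT112 cells, and at 3.87 and 6.55 FPKM in SW780 cells. All 3 treated libraries lay above all 3 DMSO libraries. The log2 ratios were 1.13, 2.21 and 0.76, and 1.00, 2.23 and 0.69 after the GC correction. FGFR2 transcripts have a GC content of 48.8%.

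FGFR2 was the only one of the 10 genes past 0.3 in the same direction in all 3 lines. Among all loci, 11.4% were above 0.3 in all 3 lines and 4.99% were below -0.3 in all 3, so a single gene of 10 above and 0 of 10 below is near this background. In limma its log2 fold change was 1.15 (standard error 0.30, unadjusted p = 0.010, adjusted p = 0.290), higher in 3 of 3 lines. The adjusted p over the alternatives lay between 0.142 and 0.973, and FGFR2 did not pass the threshold of 0.05 under any of them. An exact permutation test over 3 pairs cannot go below p = 0.25, so it was not used for single genes.

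The balance between the receptors lay further toward FGFR2 after quisinostat in each line. The ratio of FGFR2 over FGFR3, both in FPKM, was 0.201 in DMSO and 1.44 in quisinostat in RT4 cells, 0.156 and 0.376 in RT112 cells, and 1.55 and 10.6 in SW780 cells. It was 7.16-fold, 2.41-fold and 6.80-fold higher with quisinostat in that order. The value of 10.6 in SW780 cells rests on a low FGFR3 level of 0.621 FPKM. RT4 cells went from more FGFR3 to more FGFR2, RT112 cells had more FGFR3 in both libraries, and SW780 cells had more FGFR2 in both. With the GC-corrected difference the ratio in treated RT4 cells was 0.660, still with more FGFR3, so the crossing in RT4 cells was lost.

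On the log2 scale these differences in balance were 2.84, 1.27 and 2.77, and 1.72, 2.03 and 2.41 after the GC correction. The order of the lines was not the same with and without the correction. Over all alternatives, which for this ratio were chosen after seeing the data, they were between 1.72 and 2.84 in RT4, between 0.96 and 2.03 in RT112, and between 1.74 and 3.10 in SW780 cells. The summed FPKM of both receptors was 23.97 and 14.9 in RT4, 19.9 and 45.2 in RT112, and 6.36 and 7.17 in SW780 cells, DMSO first.

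**Figure D1:**
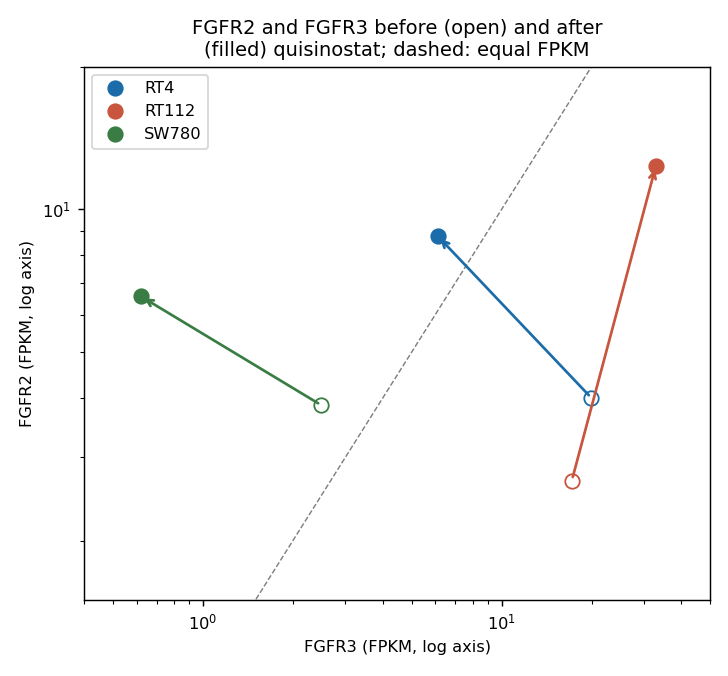
FGFR2 against FGFR3, both in FPKM on log axes, with an arrow from the DMSO library (open) to the quisinostat library (filled) of each cell line and a dashed line where both receptors are equal. Every arrow points upward for FGFR2, from 4.0 to 8.78 FPKM in RT4, from 2.68 to 12.4 in RT112 and from 3.87 to 6.55 in SW780 cells, whereas FGFR3 is lower at the arrowhead in RT4 and SW780 and higher in RT112 cells.

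The receptors FGFR1 and FGFR4 were not among the gene names of the table used here. FGFRL1, a receptor relative that lacks a kinase domain, was low, with 1.06 and 1.54 FPKM in RT4, 3.48 and 6.60 in RT112, and 2.04 and 5.29 in SW780 cells. Its log2 ratios of 0.54, 0.92 and 1.38 were all above 0.3, but in RT112 cells the value was 0.07 after the GC correction. None of 22 FGF ligands was found among the gene names.

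TACC3 (chr4:1721490-1745176, plus strand), a spindle protein that helps to stabilise mitotic microtubules, was the most highly expressed of the 10 genes in every library except the quisinostat library of SW780 cells. It stood at 65.9 FPKM in DMSO and 24.6 FPKM in quisinostat in RT4 cells, at 84.5 and 91.6 FPKM in RT112 cells, and at 36.4 and 20.2 FPKM in SW780 cells. In that last library DUSP6 was higher. TACC3 was thus 2.68-fold lower with quisinostat in RT4 and 1.80-fold lower in SW780 cells, where it is not a fusion partner, and differed 1.08-fold in RT112 cells.

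The log2 ratios of TACC3 were -1.42, 0.12 and -0.85, and -0.88, -0.28 and -0.71 after the GC correction, so the sign in RT112 cells turned with the correction. In limma the log2 fold change was -0.70 (standard error 0.31, adjusted p = 0.382). Between the lines, in the limma fit with treatment as a term, TACC3 in SW780 minus RT112 cells gave a log2 difference of -1.66 (standard error 0.38, adjusted p = 0.0980), which missed the threshold of 0.05, and the comparison of SW780 with RT4 cells, the other line with a fused TACC3, gave -0.55 (standard error 0.38, adjusted p = 0.407).

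BAIAP2L1 (chr7:98291651-98401068, minus strand), which bends membranes and links them to actin, hardly differed between any 2 of the 6 libraries. It stood at 10.1 FPKM in both libraries of RT4 cells, at 9.90 and 9.65 FPKM in RT112 cells, and at 11.1 and 11.4 FPKM in SW780 cells. The log2 ratios were 0.00, -0.04 and 0.04, and -0.21, 0.01 and -0.04 after the GC correction. SW780 cells, in which it is fused, had the highest value in both treatments, 1.12-fold over the lowest line in DMSO and 1.18-fold in quisinostat. These differences were smaller than their error in limma, with 0.14 for SW780 minus RT4 (standard error 0.23, adjusted p = 0.739) and 0.18 for SW780 minus RT112 (standard error 0.23, adjusted p = 0.676). The locus also carries the name of RPS3AP26, a pseudogene, and reads of the pseudogene cannot be told apart from those of BAIAP2L1.

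In SW780 cells FGFR3 and BAIAP2L1, which share a fusion, thus did not have like ratios, at -2.0 and 0.04. In RT4 cells FGFR3 and TACC3 were both lower, at -1.71 and -1.42, and in RT112 cells they stood at 0.93 and 0.12. The TACC3 level was 3.30 times that of FGFR3 in DMSO and 4.02 times in quisinostat in RT4 cells, and 4.92 and 2.79 times in RT112 cells.

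FGFR3 and TACC3 are neighbours at 4p16.3, and 7 loci of that neighbourhood had ratios, both genes included. In RT4 cells 6 of these 7 were below -0.3, against 33.5% of all loci, and in SW780 cells likewise 6 of 7, against 28.2%. RT112 cells had 1 of 7 below -0.3, against 25.2%, and 3 above 0.3, against 36%. Corrected for GC content, 5 were below -0.3 in RT4 and 6 in SW780 cells, and RT112 cells had 3 below and 1 above. Shares of all loci past 0.3 were computed on uncorrected ratios only, so these corrected counts have no background beside them. NELFA, a subunit of the negative elongation factor, had log2 ratios of -1.89, 1.15 and -2.14, and TMEM129 had -1.32, 0.75 and -0.87, the signs of FGFR3. With that correction NELFA had -0.96, 0.46 and -1.87, whereas TMEM129 had -0.09, -0.17 and -0.50, so that its sign in RT112 cells was no longer that of FGFR3. NSD2, a histone H3 methyltransferase, was lower in all 3 lines, at 13.6 and 6.70 FPKM in RT4, 25.4 and 12.4 in RT112, and 15.3 and 8.21 in SW780 cells, with log2 ratios of -1.02, -1.03 and -0.89 (limma log2 fold change -0.91, standard error 0.19, adjusted p = 0.245). After the GC correction the median over the 7 loci was -0.72, -0.28 and -0.71 in RT4, RT112 and SW780 cells. Around BAIAP2L1, 4 loci had ratios, with medians of -0.06, 0.05 and 0.18, and -0.15, -0.01 and 0.13 after the GC correction.

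**Figure D2:**
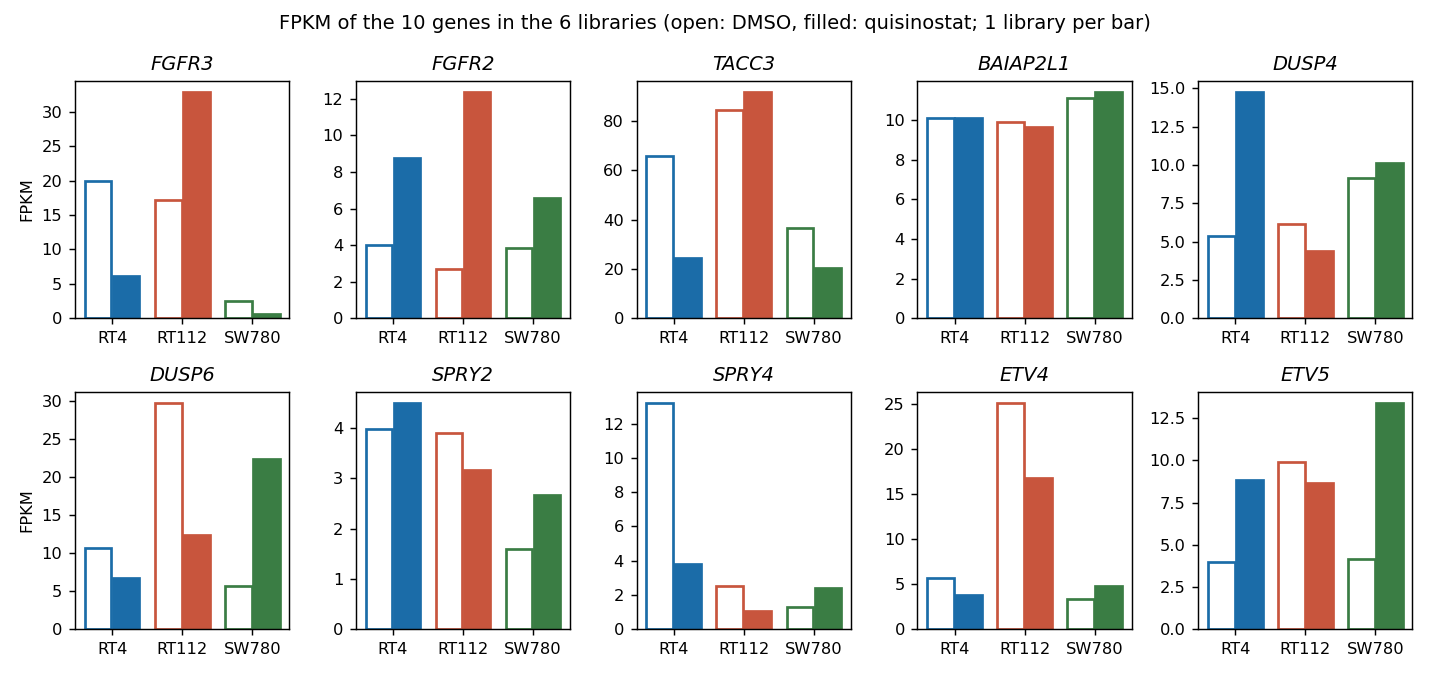
FPKM of each of the 10 genes in the 6 libraries, 1 panel per gene with its own axis from 0, with open bars for DMSO and filled bars for quisinostat and 1 library per bar, so without error bars. FGFR2 has the filled bar above the open bar in all 3 lines, and BAIAP2L1 is between 9.65 and 11.4 FPKM throughout. For FGFR3, DUSP6, SPRY4 and ETV4 the log2 ratios in RT112 and SW780 cells pass 0.3 in opposite directions. Directions are also opposite in these lines for TACC3, BAIAP2L1, DUSP4, SPRY2 and ETV5, but not past 0.3 in both.

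Among the ERK output genes, the phosphatases come first. DUSP6 (chr12:89347232-89353271, minus strand), a cytoplasmic phosphatase that removes the activating phosphates of ERK, stood at 10.6 FPKM in DMSO and 6.67 FPKM in quisinostat in RT4 cells, at 29.8 and 12.4 FPKM in RT112 cells, and at 5.70 and 22.4 FPKM in SW780 cells. The treated library was 1.60-fold lower in RT4, 2.41-fold lower in RT112 and 3.93-fold higher in SW780 cells. The order of the lines turned over, since RT112 cells had the highest value and SW780 cells the lowest in DMSO, while SW780 cells had the highest value in quisinostat. The log2 ratios of -0.67, -1.27 and 1.97 became -0.91, -1.20 and 1.89 after the GC correction. Of all loci, 2.28% were lower than DUSP6 in RT112 cells by this ratio, and 96.4% in SW780 cells.

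DUSP4 (chr8:29333064-29350668, minus strand), a nuclear phosphatase of the same family, did not follow DUSP6. It stood at 5.34 FPKM in DMSO and 14.7 FPKM in quisinostat in RT4 cells, at 6.17 and 4.40 FPKM in RT112 cells, and at 9.16 and 10.1 FPKM in SW780 cells. RT4 cells had the clearest difference, 2.76-fold higher with quisinostat, and the log2 ratios were 1.46, -0.49 and 0.14, and 1.49, -0.53 and 0.13 after the GC correction.

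The Sprouty proteins hold back signalling between the receptor and RAF. SPRY4 (chr5:142310427-142326455, minus strand) stood at 13.2 FPKM in DMSO and 3.82 FPKM in quisinostat in RT4 cells, at 2.53 and 1.06 FPKM in RT112 cells, and at 1.27 and 2.39 FPKM in SW780 cells. It was 3.46-fold lower in RT4, 2.40-fold lower in RT112 and 1.88-fold higher in SW780 cells, the same directions as those of DUSP6. The log2 ratios were -1.79, -1.26 and 0.91, and -1.71, -1.34 and 0.90 after the GC correction. In DMSO its level in RT4 cells exceeded that in SW780 cells 10.4-fold, the widest spread between the lines among the 10 genes in DMSO.

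SPRY2 (chr13:80335976-80340951, minus strand) was low in every library and varied less. It stood at 3.99 FPKM in DMSO and 4.50 FPKM in quisinostat in RT4 cells, at 3.91 and 3.18 FPKM in RT112 cells, and at 1.59 and 2.66 FPKM in SW780 cells. The log2 ratios were 0.17, -0.30 and 0.75, and 0.01, -0.27 and 0.67 after the GC correction, and that in RT112 cells lay just inside the limit of -0.3. It passed the limit after centring, rescaling to a common sum or quantile normalization.

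ETV4 (chr17:43527844-43579620, minus strand) and ETV5 (chr3:186046308-186110318, minus strand) are related ETS factors that act downstream of FGF signals. ETV4 stood at 5.68 FPKM in DMSO and 3.73 FPKM in quisinostat in RT4 cells, at 25.1 and 16.8 FPKM in RT112 cells, and at 3.37 and 4.73 FPKM in SW780 cells. Both RT112 libraries lay above all others. The log2 ratios of ETV4 were -0.61, -0.58 and 0.49, and 0.25, -1.21 and 0.74 after the GC correction, which turned the sign in RT4 cells. ETV4 transcripts have a GC content of 60.8%.

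ETV5 stood at 4.0 FPKM in DMSO and 8.86 FPKM in quisinostat in RT4 cells, at 9.90 and 8.65 FPKM in RT112 cells, and at 4.14 and 13.4 FPKM in SW780 cells. It was 2.22-fold higher in RT4 and 3.24-fold higher in SW780 cells and 1.14-fold lower in RT112 cells. On the log2 scale the ratios were 1.15, -0.19 and 1.70, so ETV4 and ETV5 had opposite signs in RT4 cells and like signs in the other lines, and after the GC correction, which gave 1.00, -0.17 and 1.62 for ETV5, they had like signs in all 3.

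**Figure D3:**
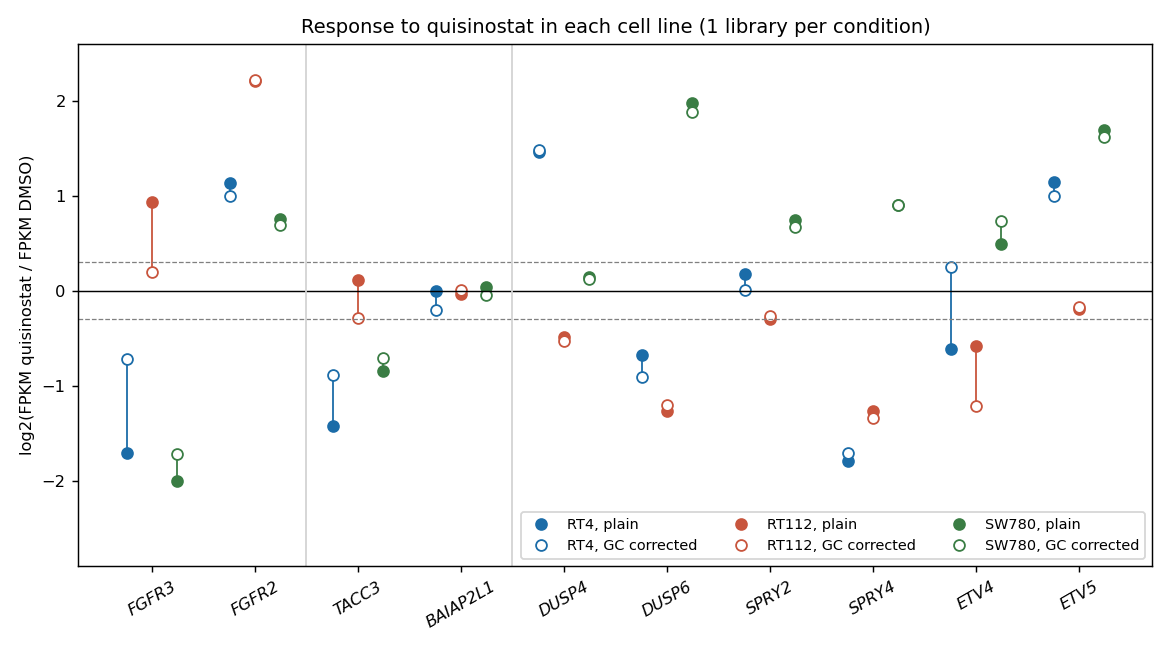
Log2 ratio of FPKM in quisinostat over DMSO for each gene and cell line, plain (filled) and after the GC correction (open, joined to the plain value), with dashed lines at -0.3 and 0.3. RT112 cells lie below 0 and SW780 cells above 0 for all 6 ERK output genes, and the correction moves FGFR3, TACC3 and ETV4 more than the others.

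As a group, the 6 ERK output genes were lower in RT112 cells and higher in SW780 cells. In RT112 cells all 6 had a log2 ratio below 0, as had 46.4% of all loci, with a median of -0.53. In SW780 cells all 6 were above 0, as were 52.4% of all loci, with a median of 0.83. RT4 cells had 3 below and 3 above, with a median of -0.22. The medians over all loci were 0.08, 0.06 and 0.04 in RT4, RT112 and SW780 cells. After the GC correction all 6 were again below 0 in RT112 and above 0 in SW780 cells, with medians of -0.87 and 0.82, and the median in RT4 cells was 0.13, of the other sign.

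These directions were not those of FGFR3 transcripts, which were higher in RT112 cells (0.93, and 0.20 after the GC correction) and lower in SW780 cells. Receptor protein and its activity are not part of these values, and any link to the receptor was not tested. In RT4 cells FGFR3, DUSP6, SPRY4 and ETV4 were all lower, and DUSP4 and ETV5 were higher. With 1 library for each line and treatment the difference between lines in the response of a gene was not tested.

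Counted over the 10 genes in RT4 cells, 5 were below -0.3, where 33.5% of all loci were, and 3 were above 0.3, where 40.3% of all loci were. RT112 cells had 4 of 10 below -0.3, against 25.2% of all loci, and 2 of 10 above 0.3, against 36% of all loci. In SW780 cells 2 of 10 were below -0.3, against 28.2% of all loci, and 6 of 10 were above 0.3, against 32.8% of all loci.

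With a limit of 1 in place of 0.3, RT4 cells had 3 of 10 genes below -1, namely FGFR3, TACC3 and SPRY4, against 14.1% of all loci, and 3 of 10 above 1, against 18% of all loci. Those above were FGFR2, DUSP4 and ETV5. In RT112 cells DUSP6 and SPRY4 were below -1, 2 of 10 against 3.6% of all loci, and FGFR2 alone was above 1, 1 of 10 against 13.8%. FGFR3 alone was below -1 in SW780 cells, 1 of 10 against 7.35% of all loci, and DUSP6 and ETV5 were above 1, 2 of 10 against 10.5%. The counts are over few genes that belong to 1 pathway and are not independent of each other.

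With the lines standing in for replicates in limma, none of the 10 genes passed an adjusted p of 0.05 for quisinostat against DMSO, and neither did any other of the 9430 loci tested, which is 0% of loci called. At an unadjusted p under 0.05, limma gave 913 loci higher and 392 lower. FGFR2 was the only one of the 10 genes among them. The next were TACC3 (adjusted p = 0.382) and ETV5, with a log2 fold change of 0.76 (standard error 0.35, adjusted p = 0.398). For DUSP6 the values of the lines cancelled, and its log2 fold change was 0.00 with a standard error of 0.58, the largest standard error among the 10 genes.

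Between the lines, limma with treatment as a term called 4.85% of loci for RT112 minus RT4, 5.1% for SW780 minus RT4 and 1.13% for SW780 minus RT112 at an adjusted p under 0.05. These fits take the departure of the lines from a shared treatment effect as their error, since the libraries of a line differ in treatment. Of 30 comparisons, 10 genes in 3 contrasts, 1 was called. ETV4 was higher in RT112 than in RT4 cells by 1.94 (standard error 0.33, adjusted p = 0.0380), and with a pseudocount of 0.01 this was 2.16 with an adjusted p of 0.0503. Over the alternatives the adjusted p lay between 0.0340 and 0.0503.

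The comparison of ETV4 in SW780 minus RT112 cells gave -2.11 (standard error 0.33, adjusted p = 0.0570), and that of FGFR3 gave -3.38 (standard error 0.60, adjusted p = 0.0662). FGFR3 in SW780 minus RT4 cells gave -2.36 (standard error 0.60, adjusted p = 0.0874). These missed the threshold, and the larger standard error of FGFR3 went with its unlike responses in the lines. For FGFR2 none of the 3 contrasts exceeded its error, with values of 0.00, -0.21 and -0.21 and a standard error of 0.37 in each.

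Other genes of the pathway were taken from lists of symbols. Of the receptors and heparan sulfate carriers that help FGFs to bind, 8 of 11 had ratios, and 3 of these 8 were above 0.3 in all 3 lines, against 11.4% of all loci. GPC4, a glypican, stood at 2.27 and 5.80 FPKM in RT4, 3.77 and 11.2 in RT112, and 0.603 and 4.87 in SW780 cells. GPC3, another glypican, stood at 1.47 and 22.3 FPKM in RT4, 0.760 and 8.78 in RT112, and 0.0577 and 0.243 in SW780 cells. SDC3, a syndecan, had log2 ratios of 0.72, 1.36 and 0.52. In limma their adjusted p-values were 0.245 for GPC4 and 0.317 for both GPC3 and SDC3.

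Of 9 receptor adapters with ratios, none was past 0.3 in the same direction in all 3 lines. Of all loci, 11.4% were above 0.3 and 4.99% below -0.3 in all 3 lines. GRB2, the adapter that recruits SOS to the receptor, had log2 ratios of 0.04, 0.01 and -0.02, and 0.13, -0.07 and -0.03 after the GC correction. Of 9 genes of the RAS, RAF, MEK and ERK core, likewise none was past 0.3 in the same direction in all 3 lines. With so few genes in either list, a count of none is near these shares of all loci. The medians of the core genes were -0.18, -0.10 and -0.07 in RT4, RT112 and SW780 cells. Corrected for GC content, these medians were 0.26, -0.26 and -0.09. HRAS had log2 ratios of -1.66, 0.87 and -0.43, which became -0.30, -0.16 and -0.02 after the GC correction.

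The Sprouty and SPRED list held 5 loci, SPRY2 and SPRY4 included. All 5 were below 0 in RT112 cells, against 46.4% of all loci, and 1 of them was past -0.3, against 25.2% of all loci. All 5 were above 0.3 in SW780 cells, against 32.8% of all loci. The medians were -0.20 and 0.91. SPRED1, which holds RAS back together with neurofibromin, had log2 ratios of 1.91, -0.13 and 1.18. In RT112 cells SPRED1 was at 0.04 after the GC correction, so that 4 of the 5 were then below 0, against 50.5% of all loci.

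Among the dual-specificity phosphatases, 8 loci had ratios and DUSP2 was listed at 0 in the quisinostat library of SW780 cells. DUSP9, a cytoplasmic phosphatase of ERK like DUSP6, was below -0.3 in all 3 lines, 1 of 8 against 4.99% of all loci, at 3.44 and 0.738 FPKM in RT4, 20.1 and 15.1 in RT112, and 2.47 and 0.206 in SW780 cells. Its log2 ratios were -2.22, -0.41 and -3.59, and limma gave -1.09 (standard error 0.31, adjusted p = 0.311). DUSP7 and DUSP14 were above 0.3 in all 3 lines, 2 of 8 against 11.4% of all loci, with 0.60, 0.55 and 1.38 for DUSP7 and 0.50, 0.80 and 0.34 for DUSP14. After the GC correction DUSP7 was at 0.05 in RT112 cells and DUSP14 at 0.28 in SW780 cells. The phosphatases thus did not share a direction in any line.

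A further list of ERK-responsive genes had 12 loci with ratios, and SPRED2 among them was also on the Sprouty and SPRED list. Of the 12, 9 were above 0.3 in SW780 cells, against 32.8% of all loci, and 3 below -0.3, against 28.2%. In RT4 cells 4 were above, against 40.3%, and 7 below, against 33.5%. RT112 cells had 4 above, against 36%, and 4 below, against 25.2%. Corrected for GC content, 9, 5 and 3 were above and 3, 6 and 6 below in SW780, RT4 and RT112 cells, for which no corrected share of all loci was computed. EPHA4, AREG and EGR1 were above 0.3 in all 3 lines, 3 of 12 against 11.4% of all loci. AREG, a ligand of the EGF receptor, stood at 0.613 and 15.0 FPKM in RT4, 3.41 and 7.45 in RT112, and 8.67 and 49.5 in SW780 cells, and EGR1, an immediate early transcription factor, had log2 ratios of 0.45, 1.05 and 4.89. EPHA4, an ephrin receptor, had 2.97, 1.91 and 1.33. MYC was below -0.3 in all 3 lines, 1 of 12 against 4.99% of all loci, at 20.4 and 3.09 FPKM in RT4, 51.1 and 28.8 in RT112, and 20.9 and 14.8 in SW780 cells. None of these passed limma, with adjusted p-values of 0.246 for AREG and EPHA4, 0.419 for EGR1 and 0.319 for MYC.

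**Figure D4:**
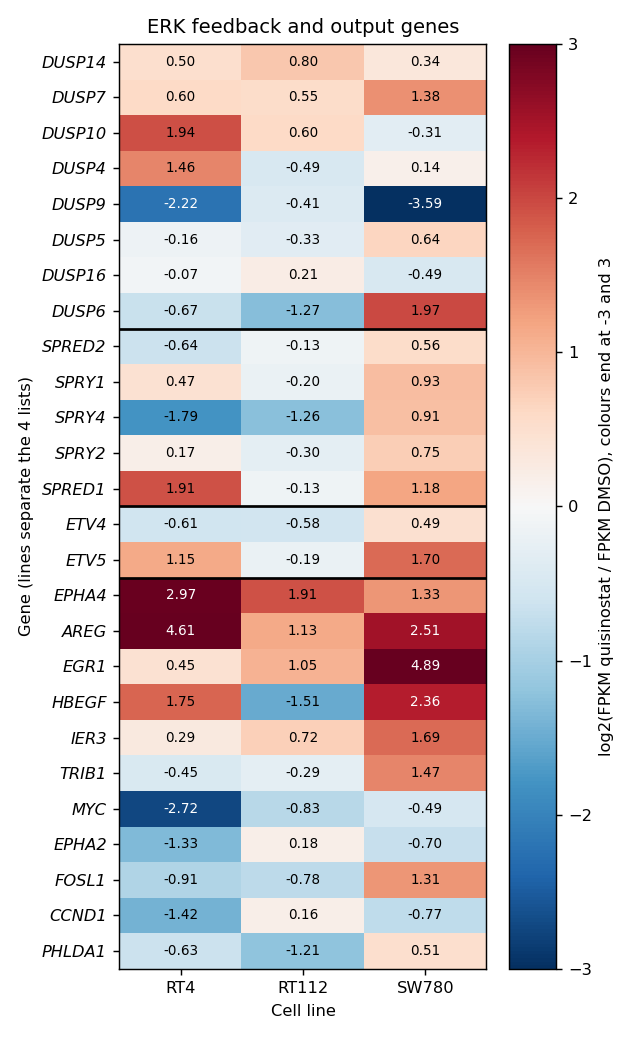
Log2 ratio of FPKM in quisinostat over DMSO in each cell line for the phosphatases, the Sprouty and SPRED genes, ETV4 and ETV5, and other ERK-responsive genes, from blue (lower) to red (higher), with colours ending at -3 and 3. The Sprouty, SPRED and ETV genes are all blue in RT112 and all red in SW780 cells, from -1.26 to -0.13 and from 0.49 to 1.70, and the phosphatases are of mixed colour in every line.

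The genes most like FGFR3 over the 6 libraries, by Pearson's r of log2(FPKM + 1) and among loci whose mean was 1 FPKM or more, were CCDC167 (r = 0.999), RNF138 (r = 0.994) and HAUS8 (r = 0.992). These values rest on only 6 libraries of 3 lines, and 64 loci exceeded 0.95 for FGFR3. Those most like DUSP6 were CEBPB (r = 0.967), a locus without a gene name (r = 0.926) and YRDC (r = 0.922), and 1 locus exceeded 0.95. The points share cell lines, so these values are a description only.

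The median over a list of markers had the signs of FGFR3, but its members were mixed. The epithelial and urothelial markers, all 15 of which were found, had a median log2 ratio of -1.21, 0.70 and -0.83 in RT4, RT112 and SW780 cells over the 14 with ratios, and -0.65, 0.38 and -0.70 after the GC correction. Of the 14, 10 were below 0 in RT4 cells, against 46.5% of all loci. In RT112 cells 11 were above 0, against 53.6%, and in SW780 cells 11 were below 0, against 47.6%. KRT20, with log2 ratios of 4.29, -1.72 and 2.98, and EPCAM, with 0.60, -0.39 and 0.32, had the opposite signs in each line. The summed level of the markers was between 995 and 1779 FPKM in the 6 libraries, and UPK3A was listed at 0 in both libraries of RT112 cells. Their part in the values of FGFR3 was not tested. Of 7 fibroblast and mesenchymal markers 2 were found, with a summed level between 0.263 and 6.66 FPKM, and of 7 leukocyte and endothelial markers none was found.

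As a check of the treatment, genes known to respond to inhibitors of histone deacetylases were read. GSN was higher in all 3 lines, with log2 ratios of 0.93, 2.79 and 1.5. CDKN1A, which encodes the cell cycle inhibitor p21, had 0.12, 1.36 and 0.52, H1F0 had 1.08, 0.45 and -0.04, CLU had 0.09, 2.62 and -0.32, and TUBB3, at a locus shared with TCF25, had -1.90, 0.54 and -0.61. With the correction CDKN1A was at 0.68 in RT4 cells and TUBB3 at -0.04 in RT112 cells. Of these 5 genes 1 was above 0.3 in all 3 lines, against 11.4% of all loci, and 2 were after the correction. In SW780 cells 2 were above 0.3, against 32.8% of all loci, and 2 below -0.3, against 28.2%. These genes thus gave no clear check of the treatment in SW780 cells.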

How the data were processed

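RNA of RT4, RT112 and SW780 cells, 1 library per line and treatment, was analysed. Samples were grouped by their labels, and SW780 cells with quisinostat, where 1 label misspells the line, were assigned by title. The authors sequenced stranded libraries of polyadenylated RNA on a NovaSeq instrument and deposited FPKM of assembled loci from a HISAT2, StringTie and Ballgown pipeline. The submitters' processing notes name CASAVA 1.8.2, Trimmomatic 0.36, HISAT2 2.2.1, SAMtools 1.15.1, StringTie 2.2.1 and GRCh38. Which annotation release was used and how rows were selected are not given in the sources used here. The low FPKM do not step in whole reads, so depth is unknown, no count test could be run and no counting interval is given.

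The 10 genes, the gene lists and the rules below were chosen with earlier results of these data known. Log2 ratios carry no pseudocount and cover loci above 0 in all 6 libraries. The limit of 0.3 is the one the study's text applies to lower genes, used here in both directions, with 1 beside it. GC content came from the longest transcript in GENCODE 29 for 92.3% of these loci, and a lowess curve (span 0.3) of ratio on GC content was subtracted in each line. limma 3.58.1 (R 4.3.3) was run with a variance trend on log2(FPKM + 1) of loci whose mean was 1 FPKM or more, with Benjamini-Hochberg adjustment over all loci and a threshold of 0.05. This scale understates the change of low genes. For quisinostat against DMSO the cell line was a block, because the libraries of a pair come from the same line. For differences between lines the treatment was a term. The 3 lines are the only replicates, and each had its own dose. Both steps were checked on simulated data. Python 3.11.15 was used elsewhere.

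Named from the lists were up to 4 loci per direction past 0.3 in all 3 lines, ordered by the weakest ratio, the 3 loci most like FGFR3 and DUSP6, and CDKN1A, H1F0, GSN, CLU and TUBB3. NELFA, TMEM129, HRAS, GRB2, SPRED1, DUSP2, KRT20, EPCAM and UPK3A were named after their values were seen. Alternatives were other pseudocounts, filters and limits, centring, rescaling, quantile normalization, the GC correction, leaving out a line, and for limma no trend, no block or no treatment term. Promoter windows are from RefSeq on GRCh38.p14, where ETV4 and ETV5 had no entry and none of DUSP4 is printed. FPKM of a shared locus cannot be split between its genes.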

Additional observations from a re-analysis of the deposited data

Results flagged for a closer look

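For FGFR3, DUSP6, SPRY4, ETV4 and DUSP4 the log2 ratios of quisinostat over DMSO passed 0.3 in opposite directions in different cell lines. With 1 library for each line and treatment these differences were not tested, and dose and cell line cannot be told apart. In single lines 25.2% to 33.5% of all loci were below -0.3 and 32.8% to 40.3% above 0.3. The share of all loci with opposite directions was not computed, so this is not a result particular to these genes. FGFR3 had -1.71 in RT4 and -2.0 in SW780 cells against 0.93 in RT112 cells, where the value was 0.20 after the GC correction. DUSP6 had -0.67 in RT4 and -1.27 in RT112 cells against 1.97 in SW780 cells. SPRY4 had the same directions, with -1.79 and -1.26 against 0.91. ETV4 had -0.61 in RT4 and -0.58 in RT112 cells against 0.49 in SW780 cells, and in RT4 cells the value was 0.25 after the GC correction. DUSP4 had 1.46 in RT4 against -0.49 in RT112 cells. After the GC correction RT112 and SW780 cells still lay on opposite sides of 0 for DUSP6, SPRY4 and ETV4.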

How the results depend on the processing

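Of 180 alternatives for the ratios of the 10 genes, 174 kept their side of the limits of -0.3 and 0.3. Inside the limits 7 of these changed sign, 6 of BAIAP2L1 and that of TACC3 in RT112 cells with the GC correction (-0.28). The GC correction reversed ETV4 in RT4 cells (0.25) and brought FGFR3 in RT112 cells inside the limit (0.20), which left 1 gene above 0.3 in RT112 cells. A limit of 1 gave 3, 2 and 1 of the 10 genes below it in RT4, RT112 and SW780 cells, 1 above it in RT112 and 2 in SW780 cells, and 0 above it in all 3 lines. Over the 55 pathway loci with ratios, 19, 16 and 12 were below -0.3 and 26, 18 and 30 above 0.3 in RT4, RT112 and SW780 cells, against 33.5%, 25.2% and 28.2% of all loci below and 40.3%, 36% and 32.8% above. At a limit of 1 these were 9, 4 and 2 below and 12, 8 and 17 above. The shares of all loci past that limit were 14.1%, 3.6% and 7.35% below and 18%, 13.8% and 10.5% above. With a line left out, between 0 and 3 of the 10 genes were below -0.3 in the remaining lines and between 1 and 2 above 0.3. Without RT112 cells FGFR3 and TACC3 were below -0.3 and FGFR2 and ETV5 above 0.3 in both other lines, and without SW780 cells DUSP6, SPRY4 and ETV4 were below -0.3. Shares of all loci past 0.3 in such pairs of lines were not computed. These counts therefore have no background beside them and are not a result particular to these genes. The number of loci called for quisinostat by limma was 0 in every setting, including the fit without the replicate block of cell lines, which gave 0, with 314 higher and 106 lower at an unadjusted p under 0.05. Without a treatment term limma called 289 loci for RT112 minus RT4, 298 for SW780 minus RT4 and 71 for SW780 minus RT112, against 457, 481 and 107 with it, and without a variance trend the last was 177. The cause of these moves was not tested. Unknown depth limits low values such as those of SPRY2, SPRY4 and FGFR3 in SW780 cells.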
